A study of Homo sapiens with 12 samples.

Results

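The miR-320 family is a group of human microRNAs whose precursors carry closely related mature sequences on their 3p arm. All precursors with a family name in the GENCODE annotation were taken, which gave 8 of the 1881 precursors listed for every library: MIR320A, MIR320B1, MIR320B2, MIR320C1, MIR320C2, MIR320D1, MIR320D2 and MIR320E. Of the 1881 listed, 977 had a count in any library.

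The libraries came from A375, a BRAF-mutant human melanoma line that responds to the BRAF inhibitor dabrafenib, and from A375-BIR, a line made resistant by growing A375 in rising doses of the drug. Each line was exposed for 48 h to 200 nM dabrafenib or to its vehicle, 0.1% DMSO. Each line and treatment had 3 small RNA libraries, 12 in all, and the labels call them biological replicates. A375-BIR is a single derived line, so the resistant state and other differences between these cultures cannot be told apart, and p-values measure the spread between these libraries.

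Most microRNA precursors are cut out of a longer transcript by Drosha in the nucleus before Dicer cuts the hairpin in the cytoplasm. The miR-320a type of precursor is known to skip the Drosha step: transcription starts at the 5′ end of the hairpin, the precursor receives a cap, leaves the nucleus through exportin-1 and is cut by Dicer, and the 3p arm is the one loaded into Argonaute. Counts of precursors cannot show how a precursor was made, so independence from Drosha was not tested.

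The mature sequences are shown because the copies of one name share them base for base, which limits what the counts can separate. Of the 8 precursors, 7 matched the RefSeq microRNA table used here (GRCh38.p14), each with its mature sequence on the 3p arm and inside the counted precursor, and MIR320A did not. The sequences and seed groups below therefore leave out the member with most of the counts. The sequences run 5′ to 3′, and capitals mark the seed, bases 2 to 8, with which a microRNA pairs to its targets.
miR-320b: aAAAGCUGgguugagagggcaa
miR-320c: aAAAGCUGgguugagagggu
miR-320d: aAAAGCUGgguugagagga
miR-320e: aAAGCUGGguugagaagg
By shared seed, miR-320b, miR-320c and miR-320d formed 1 group and miR-320e another. The sequences of miR-320b and miR-320c shared their first 19 bases, and each shared its first 18 bases with miR-320d. The longest run that miR-320e shared with any of these 3 was 15 bases. One other microRNA of the RefSeq table, miR-4429, had the seed of the first group, and its precursor MIR4429 had 0 counts in all 12 libraries.

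The 7 matched precursors lie on 5 chromosomes (hg38). The mature sequence of MIR320B1 is at chr1:116671787-116671808 on the plus strand, in no annotated gene, and that of MIR320B2 at chr1:224257049-224257070 on the minus strand, in an intron of NVL, which is transcribed in the same direction. MIR320C1 (chr18:21683559-21683578) and MIR320C2 (chr18:24321716-24321735), both on the plus strand, lie within ABHD3 and OSBPL1A, which run on the opposite strand. MIR320D1 (chr13:40727828-40727846) and MIR320D2 (chrX:140926172-140926190) are on the minus strand. MIR320E (chr19:46709294-46709311), also on the minus strand, lies within PRKD2, outside its exons.

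The values are expected counts, in which the authors' software divided each read among the precursors it could have come from. They summed to between 77264 and 121802 per library in A375 in DMSO, 36955 and 51532 in A375 in dabrafenib, 106427 and 122792 in A375-BIR in DMSO, and 35070 and 59899 in A375-BIR in dabrafenib. A count of 0 allows up to 3 counts, which is 24.4 CPM (counts scaled to a common library total) at the highest depth and 85.5 CPM at the lowest. Such limits, and the intervals of shares given below, cover counting error only.

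A375-BIR library 3 in DMSO stood apart from its group. Its counts differed from those of libraries 1 and 2 of the group with a chi-square per degree of freedom of 29.4 and 32.1, against 2.50 between these other libraries and at most 14.2 between libraries of the other groups. Its log2 CPM correlated with theirs at r = 0.968 and 0.970, against 0.990 between these other libraries. Within the dabrafenib groups r was 0.925 to 0.967, so by this measure the library did not stand apart from all groups. The main results are also given without this library.

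Precursors that resemble ribosomal RNA took a larger share of the dabrafenib libraries than of the DMSO libraries. Those with a run of at least 18 bases identical to the 45S pre-rRNA held 2.65% to 5.59% of all counts in DMSO in both lines, 14.4% to 16.9% in A375-BIR in dabrafenib and 20.9% to 26.3% in A375 in dabrafenib. None of the 8 family members was among them. Scaling by TMM (trimmed mean of M-values) gave factors of 0.69 to 0.82 in A375 in dabrafenib and of 1.04 to 1.19 in the other libraries, so the scaling weighs on every comparison with that group.

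**Figure D1:**
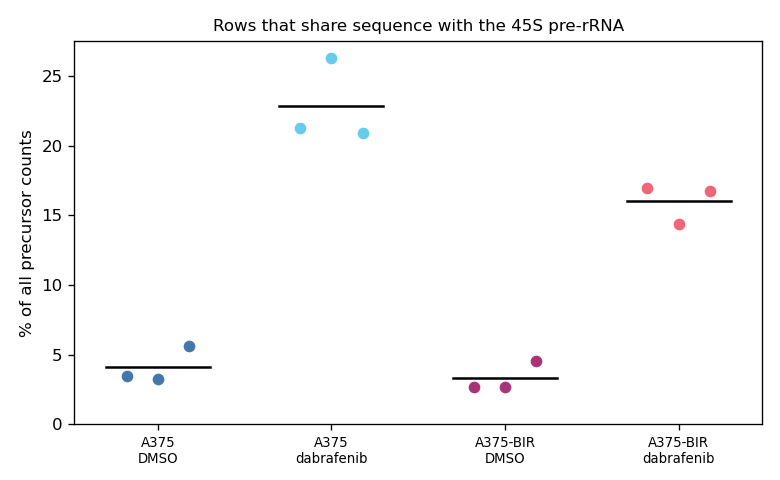
Share of each library's expected counts (percent) on precursors with a run of at least 18 bases identical to the 45S pre-rRNA, 1 point per library, with a line at the mean of each line and treatment. The A375 libraries in dabrafenib lie between 20.9% and 26.3%, the DMSO libraries at or under 5.59%.

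Nearly all family counts lay on 1 precursor. MIR320A held 96.4% of the family's counts over the 12 libraries, or 96.8% when counts were divided by precursor length. Its share of the family was between 94.5% (95% Clopper-Pearson interval 92.9% to 95.9%) and 97.2% (96.5% to 97.8%) in single libraries. Per 100 bases of precursor, MIR320A had 24886 counts in all, MIR320B1 had 413, MIR320B2 had 247, MIR320C2 had 90.3 and MIR320C1 had 42.2. The last places went to MIR320D2 with 16.8, MIR320D1 with 16.2 and MIR320E with 2.83 counts per 100 bases. The counts of MIR320A were not whole numbers either, so reads were divided across names as well as between copies, and all these shares depend on that division. The order within each pair of copies was not tested. Before division by length, MIR320B2 had more counts in all than MIR320B1, 340.5 and 326.0.

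The family as a whole made up 1.61% to 2.99% of a library. In A375 in DMSO the 3 libraries had 1771, 3533 and 2600.3 family counts, or 2.29%, 2.90% and 2.99% of their totals. In A375 in dabrafenib they had 972, 975 and 939 (2.05%, 1.89% and 2.54%). The A375-BIR libraries in DMSO had 2301, 2554 and 2915 (2.16%, 2.12% and 2.37%), and those in dabrafenib 658, 1189.7 and 767 (1.88%, 1.99% and 1.61%). The 95% Clopper-Pearson interval was widest, 2.38% to 2.71%, for A375 library 3 in dabrafenib. As plain shares, the A375 and A375-BIR libraries overlapped in DMSO and in dabrafenib.

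After scaling by TMM, the family sum stood at 20884, 29465 and 28006 CPM in the A375 libraries in DMSO and at 26091, 25045.5 and 33751 CPM in dabrafenib. In A375-BIR it stood at 21299.8, 20366 and 18157 CPM in DMSO and at 16097, 17194 and 17125 CPM in dabrafenib. Under dabrafenib the lowest A375 library exceeded the highest A375-BIR library, while in DMSO A375 library 1 fell within the range of A375-BIR. Here and below, how many of all tested precursors separate in this way was not counted, so such separation is a description. The group means were 26118 ± 4592 CPM for A375 in DMSO, 28296 ± 4753 CPM for A375 in dabrafenib, 19941 ± 1614 CPM for A375-BIR in DMSO and 16805 ± 615 CPM for A375-BIR in dabrafenib (SD, n = 3 each). In order of level, A375 in dabrafenib and A375 in DMSO were the highest and differed by less than their SDs. A375-BIR in DMSO and then A375-BIR in dabrafenib followed, with libraries that did not overlap and a difference that did not pass the test given below. This order is that of TMM. As plain shares the means were 2.73% for A375 in DMSO, 2.22% for A375-BIR in DMSO, 2.16% for A375 in dabrafenib and 1.82% for A375-BIR in dabrafenib.

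**Figure D2:**
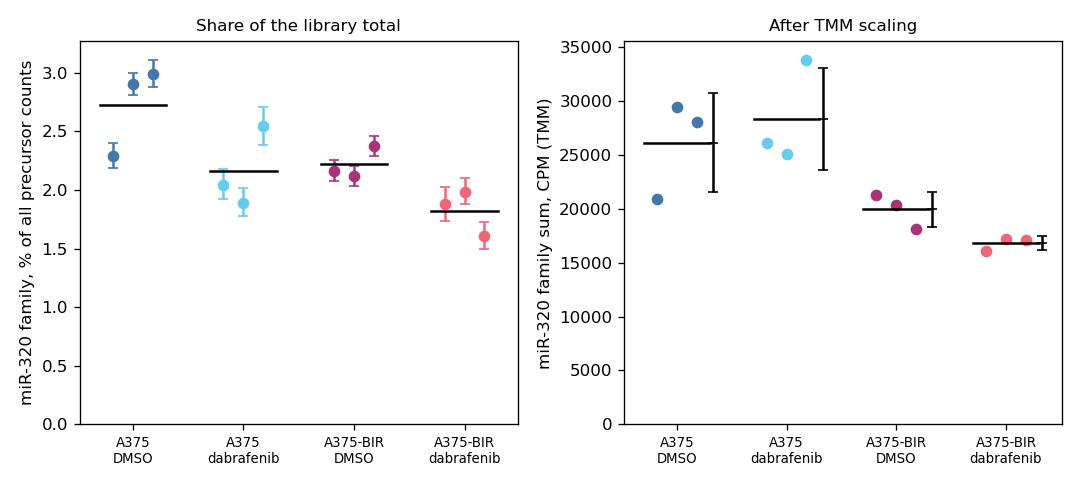
Family sum in each of the 12 libraries, as a percentage of the library's expected counts with 95% Clopper-Pearson intervals and a line at the group mean (left) and in CPM after TMM with the group mean and SD beside the points (right), by line and treatment. On the right, the A375 libraries in dabrafenib, from 25045.5 to 33751 CPM, lie above the A375-BIR libraries in dabrafenib, from 16097 to 17194 CPM.

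The family sum was higher in A375 than in A375-BIR. Over both treatments the difference was 1.48-fold (95% interval 1.25 to 1.76), a log2 fold change of 0.57 (standard error 0.12, Benjamini-Hochberg adjusted p = 0.000766, edgeR quasi-likelihood test). An exact two-sided permutation test, exchanging line labels within each treatment, gave a mean log2 difference of 0.56 and p = 0.01, where 0.005 is the smallest p that its 400 arrangements allow. With DMSO labels exchanged only between libraries of the same number, an alternative chosen after the data were seen, the exact permutation test gave p = 0.025, where 0.0125 is the smallest p of 160 arrangements. Without A375-BIR library 3 in DMSO the log2 fold change was 0.54 (Benjamini-Hochberg adjusted p = 0.00137, edgeR quasi-likelihood test). Total counts alone in place of TMM gave the lowest value, 0.27 (Benjamini-Hochberg adjusted p = 0.0405, edgeR quasi-likelihood test). That p was the highest among the 34 alternatives to this result, in which adjusted p ranged from 1.58e-07 to 0.0405. In bulk libraries, fewer cells with a high level and less RNA per cell cannot be told apart.

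In dabrafenib the family sum was 1.68-fold higher in A375 (95% interval 1.32 to 2.15), a log2 fold change of 0.75 (standard error 0.16, Benjamini-Hochberg adjusted p = 0.00235, edgeR quasi-likelihood test), and it was 0.75 as well without A375-BIR library 3 in DMSO. This call depended on the scaling and the filter. Total counts alone gave 0.24 (Benjamini-Hochberg adjusted p = 0.212, edgeR quasi-likelihood test, the highest of its 35 alternatives, which began at 1.24e-05). It was also lost with precursors at 1 CPM in 3 libraries kept (0.51) and without a filter (0.46). The share of rRNA-like precursors also differed between the lines in dabrafenib. With these precursors left out, an alternative chosen after the data were seen, TMM gave 0.55, which passed, and total counts gave 0.36, which did not.

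In DMSO the family sum was 1.31-fold higher in A375 (95% interval 1.03 to 1.67), and the log2 fold change, 0.39 (standard error 0.16), missed the threshold of 0.05 after adjustment (Benjamini-Hochberg adjusted p = 0.0629, edgeR quasi-likelihood test). Without A375 library 1, the lowest of its group, the value was 0.44 and passed (Benjamini-Hochberg adjusted p = 0.0178, edgeR quasi-likelihood test). That fit took A375-BIR library 1 in DMSO as the TMM reference, and with all libraries kept the same reference gave 0.33, which did not pass, an alternative chosen after the data were seen. Without A375-BIR library 3 in DMSO the value was 0.33, and without A375 library 2 or 3 in DMSO it was 0.26 or 0.27. These values did not pass. With all libraries kept, DESeq2's size factors gave 0.49 (Benjamini-Hochberg adjusted p = 0.0109, edgeR quasi-likelihood test), and adjusted p over the 35 alternatives ranged from 0.00528 to 0.453.

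Many other precursors differed between the lines as well, so the family's call is one among many. Of the 175 precursors tested, 60% differed over both treatments, 46.3% in DMSO alone and 46.3% in dabrafenib alone, and 3 of the 8 family members had enough counts to be tested. Of these, MIR320B1 and MIR320B2 share reads and are not separate measurements. Over both treatments all 3 members passed, higher in A375, as did 45 precursors in all, with 60 lower. Total counts alone gave 35 higher and 72 lower, and DESeq2's size factors 54 higher and 50 lower. In DMSO 28 were higher and 53 lower in A375 (38 and 43 with DESeq2's size factors), and 0 of the 3 members passed in edgeR, with MIR320A alone under an unadjusted p of 0.05 and alone past the adjusted threshold in DESeq2's Wald test. With DESeq2's size factors in edgeR's test all 3 members passed in DMSO (MIR320A 0.46, MIR320B1 0.62, MIR320B2 0.64). In dabrafenib all 3 members passed, beside 42 higher and 39 lower among all tested (24 and 59 with total counts alone, 29 and 45 without the rRNA-like precursors). DESeq2's Wald test called MIR320A alone among the members in dabrafenib, and total counts alone ended all 3 calls. Among the 173 entries tested with the family summed, itself included, the family sum's log2 fold change was at or above that of 74.0% over both treatments. This share was 69.4% within DMSO and 78.0% within dabrafenib.

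The choice of scaling moved the median precursor together with the family. Total counts in place of TMM shifted the median log2 fold change of all tested precursors by -0.32 between the lines over both treatments, by -0.09 in DMSO and by -0.50 in dabrafenib, and by -0.46 for dabrafenib in A375, -0.04 for dabrafenib in A375-BIR and -0.39 for the difference between these responses. DESeq2's size factors shifted it by 0.11 between the lines in DMSO and by -0.17 for dabrafenib in A375. Relative to the median precursor, the family sum was higher in A375 by a log2 difference of 0.64 over both treatments, 0.49 within DMSO and 0.77 within dabrafenib with TMM, and of 0.66, 0.49 and 0.75 with total counts alone.

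**Figure D3:**
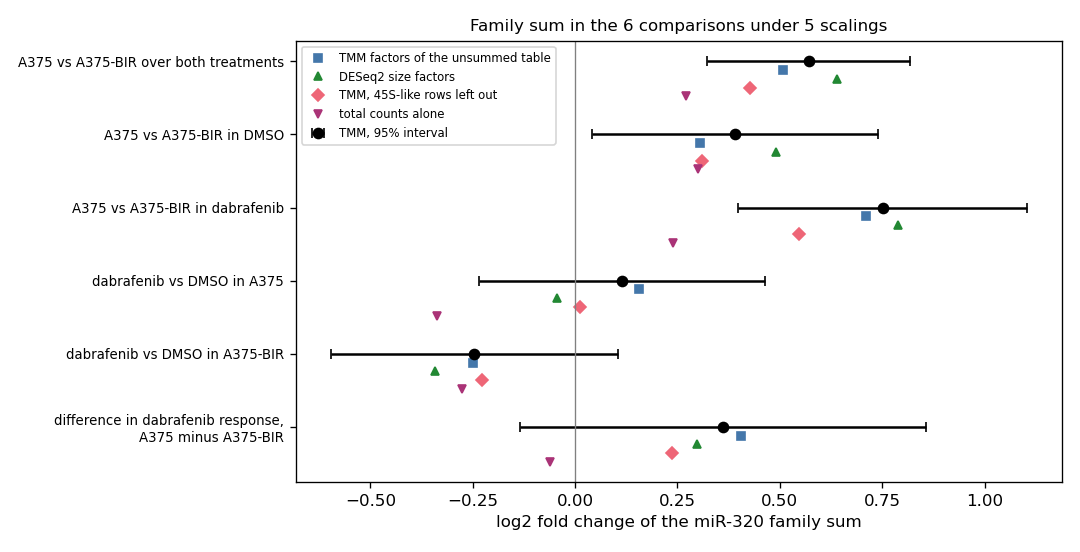
Log2 fold change of the family sum in the 6 comparisons, with TMM and its 95% interval (black) and with 4 other scalings. Between the lines all values lie above 0, from 0.24 to 0.79, whereas for dabrafenib in A375 they lie on both sides of 0, from -0.34 to 0.16.

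MIR320A, the most abundant member, was higher in A375 over both treatments and in dabrafenib, as the sum was. Its CPM come from the scaling of another table and cannot be set against those of the sum library by library. It stood at 20354, 25793 and 26495 CPM in A375 in DMSO, at 23963, 26549 and 29808 CPM in A375 in dabrafenib, at 20156, 19347 and 19591 CPM in A375-BIR in DMSO and at 16988, 17237 and 14968 CPM in A375-BIR in dabrafenib. The lines did not overlap in either treatment, a description, though in DMSO the lowest A375 library and the highest A375-BIR library lay close together. Its log2 fold change was 0.50 over both treatments (standard error 0.10, Benjamini-Hochberg adjusted p = 0.000468, edgeR quasi-likelihood test) and 0.71 in dabrafenib (Benjamini-Hochberg adjusted p = 0.00102, edgeR quasi-likelihood test). In DMSO it was 0.30 (Benjamini-Hochberg adjusted p = 0.0951, edgeR quasi-likelihood test), or 0.41 and past the threshold without A375 library 1. The call in dabrafenib was lost with precursors at 1 CPM in 3 libraries kept (0.49), without a filter (0.48) and with the rRNA-like precursors left out and total counts (0.36). Total counts alone lowered the value in dabrafenib to 0.24, which did not pass, and that over both treatments to 0.26, which did.

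Single family members and their sum were scaled from separate tables, and edgeR's automatic choice of a reference library for TMM differed between these tables. With the factors of the unsummed table, an alternative chosen after the data were seen, the family sum gave 0.51 over both treatments, 0.30 within DMSO and 0.71 within dabrafenib, close to MIR320A. With each of the 12 libraries as the reference in turn, 1 of them the one edgeR had picked, also chosen after the data were seen, the family sum passed in 12 of 12 settings over both treatments and in dabrafenib, and in 5 of 12 in DMSO, where it lay between 0.32 and 0.55.

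The copies MIR320B1 and MIR320B2 cannot be counted apart, since a read of miR-320b matches both. Their sum still depends on how reads were divided between miR-320b and the other names. MIR320B1 had 28.9, 55.5 and 36.2 counts in A375 in DMSO, 21.8, 14.1 and 16.9 in A375 in dabrafenib, 32.7, 38.1 and 35.7 in A375-BIR in DMSO and 14.9, 19.6 and 11.7 in A375-BIR in dabrafenib. MIR320B2 had 13.7 to 54.5 counts, and the counts of the copies differed by a whole number, within 0.015, in 11 of 12 libraries, by -1 to 4 counts. At these depths a few reads move a value. As a description, the scaled levels of both copies overlapped between the lines in dabrafenib but not in DMSO.

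Summed, the miR-320b copies had a log2 fold change between the lines of 0.62 over both treatments, higher in A375 (standard error 0.16, Benjamini-Hochberg adjusted p = 0.00440, edgeR quasi-likelihood test). In dabrafenib the value was 0.77 (Benjamini-Hochberg adjusted p = 0.0185, edgeR quasi-likelihood test) and in DMSO 0.48, which did not pass. It passed in DMSO with DESeq2's size factors (0.65) and with only the compared libraries fitted (0.48). Total counts alone ended the call over both treatments, at 0.39, and in dabrafenib, at 0.30, and these calls were kept in 21 of 23 and in 15 of 24 alternatives. The call in dabrafenib was also lost without A375-BIR library 2 (0.73) or 3 (0.62) in dabrafenib, or A375 library 1 (0.67) or 3 (0.66) in dabrafenib. Taken singly, MIR320B1 gave 0.58 and MIR320B2 0.62 over both treatments, and both passed. These calls were kept in 18 of 22 and in 19 of 22 alternatives, and total counts alone ended both (0.35 and 0.39). Within dabrafenib MIR320B1 gave 0.71 and MIR320B2 0.77, which passed in edgeR's quasi-likelihood test but not in DESeq2's Wald test, nor with the replicate number as a block (0.70 and 0.76), and the call was kept in 6 of 23 and in 10 of 23 alternatives. Both calls were lost without A375-BIR library 1 in DMSO (0.63 and 0.69), A375-BIR library 2 (0.68 and 0.71) or 3 (0.56 and 0.66) in dabrafenib, and A375 library 1 (0.54 and 0.60) or 3 (0.64 and 0.63) in dabrafenib. That of MIR320B1 was also lost without A375 library 2 or 3 in DMSO (0.71 each). Without A375-BIR library 3 in DMSO the summed copies gave 0.60 over both treatments.

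**Figure D4:**
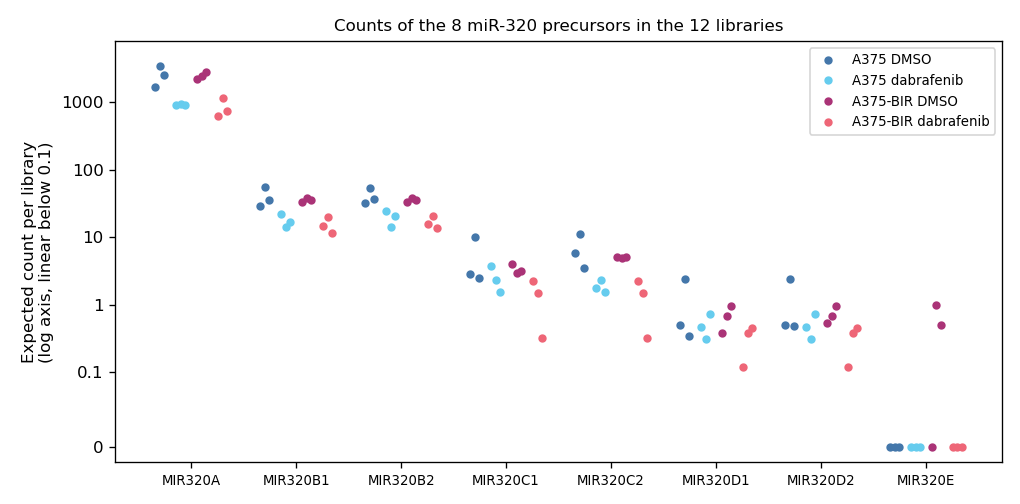
Expected counts of each family member in the 12 libraries, on a log axis that is linear under 0.1, by line and treatment. MIR320A lies between 622 and 3397 counts, MIR320B1 and MIR320B2 between 11.7 and 55.5, and the other members at or under 11 counts.

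The remaining 5 members were too sparse to test. MIR320C1 had between 0.32 and 10 counts per library (median 2.69) and MIR320C2 between 0.32 and 11 (median 2.90). The miR-320c copies differed by a whole number in 12 of 12 libraries, by -2 to 3 counts, and were equal in 5. In sum MIR320C1 had 23 counts in A375 and 14.2 in A375-BIR, and MIR320C2 had 26 and 19.2. MIR320D1 and MIR320D2 had between 0.12 and 2.42 counts per library. They had the same value in 10 of 12 libraries, where their reads were thus divided evenly, and a gap of at most 0.16 otherwise. MIR320E had 1 count in A375-BIR library 2 in DMSO, 0.5 in library 3 there and 0 in the other libraries. Whether these members differed between the lines was not tested.

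Dabrafenib did not move the family past the threshold in either line. In A375 the family sum differed between dabrafenib and DMSO by a log2 fold change of 0.11 (95% interval -0.24 to 0.46, Benjamini-Hochberg adjusted p = 0.641, edgeR quasi-likelihood test), and the groups overlapped. The sign depended on the scaling: DESeq2's size factors gave -0.04 and total counts alone -0.34, and relative to the median precursor the value was 0.03 with TMM and 0.03 with total counts. In A375-BIR it was -0.25 (95% interval -0.60 to 0.10, Benjamini-Hochberg adjusted p = 0.294, edgeR quasi-likelihood test), with all 3 dabrafenib libraries below all 3 DMSO libraries. That value lay between -0.49 and -0.07 in the 35 alternatives, with adjusted p from 0.0501 to 0.783, and was -0.31 without A375-BIR library 3 in DMSO. The separation of the libraries is a description, since how many of all tested precursors separate in this way was not counted.

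When treatment labels were exchanged within each line, the exact two-sided permutation test gave for the family sum a mean log2 difference of -0.06 and p = 0.635. With total counts alone the same exact test gave -0.31 and p = 0.02, and with 538 precursors kept by a filter of 1 CPM in 3 libraries it gave -0.38 and p = 0.01, so the answer for treatment depended on the scaling and the filter. The share of rRNA-like precursors differed between these treatments in both lines, as given above. With those precursors left out the exact test gave -0.11 and p = 0.215 with TMM, and -0.05 and p = 0.61 with total counts.

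Of all tested precursors, 25.1% responded to dabrafenib in A375 and 20.6% in A375-BIR by edgeR's quasi-likelihood test, and 0 of the 3 tested members did in either line. At an unadjusted p under 0.05, MIR320B2 was alone among the members in A375 and none was in A375-BIR, and DESeq2's Wald test called 0 members in either line. Of the 12 TMM references, alternatives chosen after the data were seen, 1 gave a pass for MIR320A in A375-BIR (-0.42, with A375 library 1 in DMSO), and the others lay between -0.32 and -0.14 and did not pass. In A375, 32 precursors rose and 12 fell (23 and 23 with DESeq2's size factors, 18 and 44 with total counts alone, 34 and 28 with only the compared libraries fitted). Keeping precursors at 1 CPM in 3 libraries gave 19 and 34, and leaving out A375 library 1 in DMSO gave 23 and 7. In A375-BIR 23 rose and 13 fell (23 and 20 with DESeq2's size factors, 18 and 1 with only the compared libraries fitted, 18 and 2 without A375-BIR library 1 in DMSO, 16 and 6 without library 2). There, 15 rose and 17 fell with the rRNA-like precursors left out, and 25 and 28 with precursors at 1 CPM in 3 libraries kept. The summed miR-320b copies had a log2 fold change of 0.49 in A375, which passed only without A375 library 2 in dabrafenib (0.68), and of 0.19 in A375-BIR. The latter was 0.0553 without A375-BIR library 3 in DMSO and 0.34 without A375-BIR library 3 in dabrafenib, and did not pass.

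The response to dabrafenib was not shown to differ between the lines. For the family sum the difference of the log2 fold changes, A375 minus A375-BIR, was 0.36 (95% interval -0.13 to 0.86, Benjamini-Hochberg adjusted p = 0.455, edgeR quasi-likelihood test), and with total counts alone it was -0.06. Without A375-BIR library 3 in DMSO it was 0.42. The same test called 3.43% of all tested precursors, 5 with a higher and 1 with a lower response in A375 (3 and 5 with total counts alone), and 0 of the 3 tested members by edgeR's quasi-likelihood test, with 0 of them under an unadjusted p of 0.05 and 0 called by DESeq2's Wald test. The line difference in dabrafenib and that in DMSO are therefore 2 values that were not shown to differ.

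Other precursors that depart from the standard route, in which Drosha and then Dicer cut, were set beside the family. The list of 20 held MIR484, whose capped hairpin also starts at a transcription start site, precursors listed as mirtrons, a class released by splicing, precursors within snoRNAs, and the Dicer-independent MIR451A. How each listed precursor is made was not tested. Of the 7 with enough counts, 3 passed over both treatments, 2 of them higher and 1 lower in A375, against 60% of all tested precursors, and their median log2 fold change was 0.41, against -0.11 for all tested precursors. MIR484 had 240.2 ± 41.0 CPM in A375 in DMSO (SD, n = 3) and a log2 fold change of 0.41 that did not pass (Benjamini-Hochberg adjusted p = 0.170, edgeR quasi-likelihood test).

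Among the others, the snoRNA-hosted MIR1291 was higher in A375 over both treatments by 0.83 (Benjamini-Hochberg adjusted p = 0.00388, edgeR quasi-likelihood test) and by 1.05 in DMSO, and with total counts alone the former value, 0.58, did not pass. The mirtron MIR877 was higher by 0.95 over both treatments (Benjamini-Hochberg adjusted p = 0.0208, edgeR quasi-likelihood test) and by 1.53 in dabrafenib. Without A375 library 2 in dabrafenib these values were 0.68 and 0.99 and did not pass, and the value in dabrafenib also did not pass without A375 library 3 (1.45) or A375-BIR library 1 (1.17) in dabrafenib or with only the compared libraries fitted (1.33). Neither passed with total counts alone (0.69 and 1.02), whether or not the rRNA-like precursors were left out too (0.77 and 1.16). MIR1248, in a snoRNA, was lower in A375 (log2 fold change -0.93), a call lost without A375-BIR library 3 in DMSO (-0.54) or 1 in dabrafenib (-0.72), or without A375 library 1 (-0.89) or 2 (-0.81) in DMSO or 1 (-0.91) or 2 (-0.80) in dabrafenib, and with DESeq2's size factors (-0.79). Dabrafenib raised MIR1225, listed here with the mirtrons, in A375-BIR, from 8 counts over the 3 DMSO libraries to 28 over the 3 dabrafenib libraries, by a log2 fold change of 3.10 (Benjamini-Hochberg adjusted p = 0.00529, edgeR quasi-likelihood test). It also raised MIR1291 there by 1.10, which did not pass without A375-BIR library 1 (0.94) or 2 (1.00) in DMSO or 2 in dabrafenib (0.83), or with only the compared libraries fitted (1.17). In A375, where 25.1% of all tested precursors passed for dabrafenib, 0 of the 7 did in edgeR's quasi-likelihood test, with MIR1291 alone under an unadjusted p of 0.05 and 0 called by DESeq2's Wald test. The difference in response between the lines likewise passed for 0 of the 7, against 3.43% of all tested precursors, with MIR1225 alone under an unadjusted p of 0.05 and 0 called by DESeq2's Wald test.

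The miR-17-92 cluster, a polycistron cut by Drosha, served for comparison. Of its 6 precursors 4 were tested, and over both treatments MIR20A, at a log2 fold change of -1.33 (Benjamini-Hochberg adjusted p = 0.0188, edgeR quasi-likelihood test), and MIR17, at -1.01, were lower in A375. The call of MIR17, with 1 to 35.5 counts per library, was lost without A375-BIR library 2 in DMSO (-0.89) or in dabrafenib (-0.71), A375 library 2 (-1.02) or 3 (-0.89) in DMSO, or A375 library 1 (-0.93) or 3 (-0.86) in dabrafenib, and with DESeq2's size factors (-0.91), and DESeq2's Wald test did not call it. MIR18A, at -1.04, and MIR92A1, at -0.16 with 178.5 to 1374 counts per library, did not pass. The median of the 4 was -1.03 over both treatments. Within DMSO, within dabrafenib and for dabrafenib in each line 0 of the 4 passed in edgeR's quasi-likelihood test or DESeq2's Wald test, with MIR20A between the lines in dabrafenib the sole one under an unadjusted p of 0.05. Of all tested precursors 46.3%, 46.3%, 25.1% and 20.6% passed in these comparisons. Neither list was tested as a whole against other precursors.

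**Figure D5:**
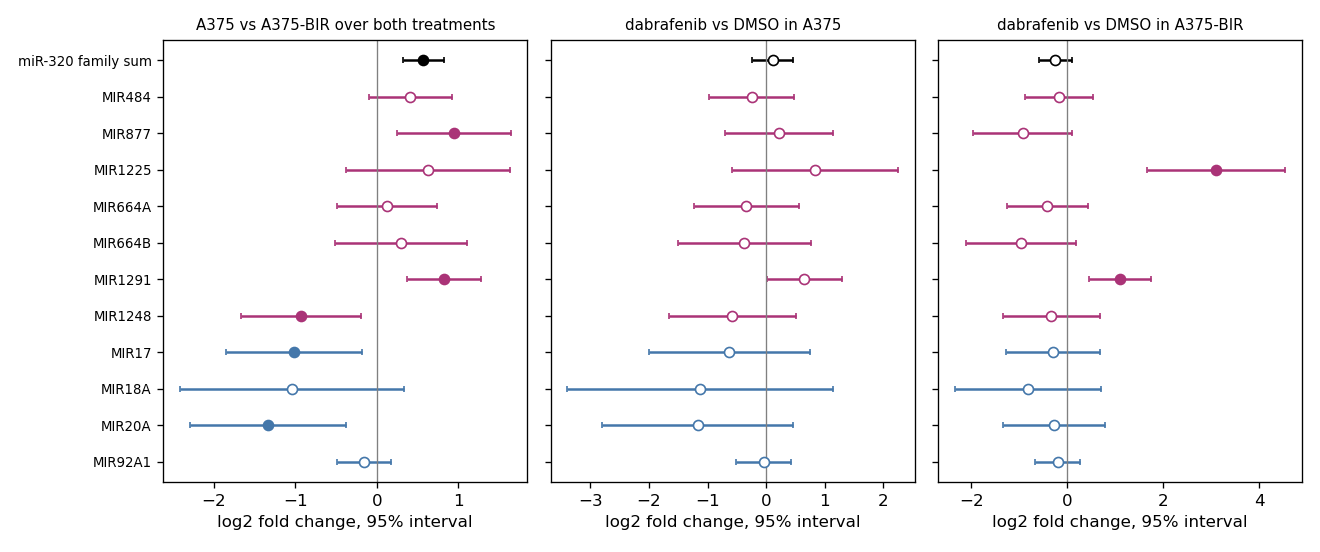
Log2 fold changes with 95% intervals of the family sum (black), of the other precursors listed as made outside the standard route (purple) and of the miR-17-92 cluster (blue), between the lines with treatments averaged (left, A375 over A375-BIR), dabrafenib over DMSO in A375 (middle) and in A375-BIR (right). Filled points passed the threshold, among them the family sum at 0.57 and MIR20A at -1.33 on the left and MIR1225 at 3.10 on the right.

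The tested precursors whose levels ran most like the family sum over the 12 libraries were MIR760 (Pearson r = 0.98 of log2 CPM), MIR671 (0.96), MIR1180 (0.88), MIRLET7D (0.88) and MIR197 (0.84), against a median r of -0.06 over the 172 others. These points share their 4 groups and 1 scaling factor per library, so r is a description. MIR760 averaged 704 CPM in A375 in DMSO, 750.2 CPM in A375 in dabrafenib, 397 CPM in A375-BIR in DMSO and 286 CPM in A375-BIR in dabrafenib, the same order of groups as the family sum. With total counts alone MIR760 (0.91) and MIR671 (0.82) still led, while MIR1180 came in place 10 and MIR197 in place 25.

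The cell type was checked with microRNAs of the melanocyte lineage. Of 6 such precursors 5 had counts, MIR204 the most with 1265 over all libraries, and MIR514A1 was at 0. MIR211 had 44 counts over all libraries, at most 9 in a library, and was not among those tested. MIR509-1 and MIR509-2 had the same total, 196.66 counts each, and are not separate measurements. The summed counts of the list were 252, 373 and 264 in the A375 libraries in DMSO and 297, 377 and 197 in dabrafenib. In A375-BIR they were 23.0, 23 and 28 in DMSO and 19, 21.0 and 34 in dabrafenib, so that this list, like the family, was higher in A375. As shares of the library they were 0.326%, 0.306% and 0.304% in A375 in DMSO, 0.625%, 0.732% and 0.533% in A375 in dabrafenib, 0.0216%, 0.0191% and 0.0228% in A375-BIR in DMSO and 0.0542%, 0.0351% and 0.0714% in A375-BIR in dabrafenib. These shares were higher with dabrafenib without overlap in either line, a description, since the list was not tested as a whole. For MIR204 the log2 fold change between the lines was 4.0 (Benjamini-Hochberg adjusted p = 5.09e-09, edgeR quasi-likelihood test). Dabrafenib raised MIR204 in A375 by 1.84 (Benjamini-Hochberg adjusted p = 0.000289, edgeR quasi-likelihood test), a call kept in 23 of 23 alternatives. MIR509-1, MIR509-2 and MIR509-3 rose there by 0.80, 0.80 and 0.81, calls kept in 12, 12 and 10 of 23 alternatives. These calls were lost, among other settings, with total counts alone (0.30, 0.30 and 0.31), with the replicate number as a block (0.80, 0.80 and 0.81) and without A375 library 1 (0.77, 0.77 and 0.81), 2 (0.83 each) or 3 (0.80, 0.80 and 0.78) in DMSO or 3 in dabrafenib (0.69, 0.69 and 0.70). That of MIR509-3 was also lost without A375 library 2 in dabrafenib (0.82). In A375-BIR these 4 did not pass for dabrafenib in edgeR's quasi-likelihood test: MIR204 gave 1.16, MIR509-1 and MIR509-2 gave 1.77 each and MIR509-3 gave 1.71. All 4 were under an unadjusted p of 0.05 there. The part of this list's difference in the family's difference was not tested.

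Markers of other cells were near 0: over all 12 libraries MIR142 of blood cells had 22.5 counts and MIR451A 0, MIR200C of epithelium 16 and MIR429 0, the muscle precursor MIR1-2 7.11, MIR122 of liver 0, and all 3 MIR124 precursors of neurons 0.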

How the data were processed

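Small RNA was sequenced from 12 libraries. Per the labels and the methods, the authors trimmed the reads, removed rRNA and phiX reads and deposited expected counts per precursor from RSEM 1.2.25 (hg38; the Ensembl release is not given in the sources used here), which were not normalized; R 4.0.2 is also in the submitters' notes. Because RSEM divides reads among precursors, copies of one mature sequence are not separate measurements, and arms are not told apart.

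Of the 1881 Ensembl identifiers 1877 were named with GENCODE v44. Expected counts were rounded to whole numbers, filtered with filterByExpr over the 4 groups, scaled by TMM and fitted with 1 mean per line and treatment in edgeR 4.0.16 (R 4.3.3). The edgeR quasi-likelihood test was used, with Benjamini-Hochberg adjustment over all precursors tested and a threshold of 0.05. This was done for the table as deposited (175 tested), with the family summed (173) and with copies summed by mature name (174). Line differences are given as A375 over A375-BIR. CPM are counts relative to a library's total times its TMM factor. Log2 CPM used a prior count of 2. The fit was tested on simulated data. It found 39 of 39 changed precursors between the lines, 37 of 44 for dabrafenib in A375 and 31 of 35 in A375-BIR. In the same order, 0, 1 and 1 unchanged precursors were called. The sizes of these changes are not given here, and recovery of changes as small as the family's was not tested. Shared runs with the 45S pre-rRNA were sought in the sense direction over hg38 chromosome 21, 8205988 to 8219302 (17 precursors, 15 with a count).

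The precursors named are the members, precursors with a member's seed, listed precursors that passed the filter, and the 5 most like the family sum. The members and lists were chosen with earlier results of these data known. Alternatives were other filters, DESeq2 1.42.0's size factors or Wald test, total counts, edgeR's likelihood ratio test, fits of the libraries compared, rRNA-like precursors left out, other TMM references, the replicate number as a block, and each library left out.

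Among the DMSO libraries, deviations from the group mean correlated between A375 and A375-BIR libraries of the same number (r = 0.11, 0.21 and 0.31), and 6 of 6 libraries correlated best with their own number, so the number was taken to pair these. The fit has no block, and the block is an alternative. The pairing comes from the data, since no source says what a number marks.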

Additional observations from a re-analysis of the deposited data

Results flagged for a closer look

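The response to dabrafenib differed between the lines, by the test of the difference itself, for 3 of the 7 tested precursors on the list of those named for likeness to ribosomal RNA, against 3.43% of all tested precursors. The difference in log2 fold change, A375 minus A375-BIR, was 1.24 for MIR663A, 1.65 for MIR3648-1 and 1.64 for MIR3648-2. These values are given with TMM only, and their dependence on the scaling was not tested. Total counts alone shifted the median precursor by -0.39 in this comparison. MIR3648-1 and MIR3648-2 are copies that share reads. The other 4 of the list, MIR6724-1 to MIR6724-4, had a difference of -0.0019 each and did not pass. Their values were identical to one another in every comparison, so the 7 are not 7 separate measurements. No member of the miR-320 family was among the precursors that differed in this way, and the cause was not tested.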

How the results depend on the processing

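The log2 fold change of the family sum between the lines over both treatments kept its direction and its side of the threshold in 34 of 34 alternatives (0.27 to 0.64), and the exact permutation test of line did so in 21 of 21 (p from 0.005 to 0.035). The family sum kept both in 31 of 35 alternatives within dabrafenib, 27 of 35 within DMSO, 22 of 35 for dabrafenib in A375, and 35 of 35 in A375-BIR. For the difference between the responses this held in 33 of 34. Depth limits the 5 sparse members to counts. Where a value below departs from the result in the text, the cause was not tested.

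With all precursors at 1 CPM in 3 libraries kept, the line values within dabrafenib did not pass (family sum 0.51, miR-320b sum 0.57, MIR320A 0.49, MIR320B1 0.49, MIR320B2 0.56), nor did MIR320B1 (0.45) and MIR320B2 (0.49) over both treatments. The sign for dabrafenib turned in A375 for the family sum (-0.26), MIR320A (-0.26) and MIR320B1 (-0.0073), and in A375-BIR for the miR-320b sum (-0.0544) and MIR320B1 (-0.0828). The exact permutation test of treatment gave -0.38. Without a filter the values that no longer passed were 0.46, 0.52, 0.48, 0.49 and 0.55 within dabrafenib, in the same order, and 0.47 for the miR-320b sum, 0.43 for MIR320B1 and 0.48 for MIR320B2 over both treatments. Signs turned in A375 for the family sum (-0.25) and MIR320A (-0.25), and in A375-BIR for the miR-320b sum (-0.0232) and MIR320B1 (-0.0948), and the exact test of treatment gave -0.35.

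With total counts alone, calls were lost within dabrafenib (family sum 0.24, miR-320b sum 0.30, MIR320A 0.24, MIR320B1 0.24, MIR320B2 0.31) and over both treatments (miR-320b sum 0.39, MIR320B1 0.35, MIR320B2 0.39). Signs turned for dabrafenib in A375 (family sum -0.34, miR-320b sum -0.00077, MIR320A -0.35, MIR320B1 -0.0883) and for the difference in response (-0.0623, -0.17, -0.0594 and -0.21 in the same order, and -0.17 for MIR320B2). The exact test of treatment gave -0.31. DESeq2's size factors brought all line values within DMSO past the threshold (family sum 0.49, miR-320b sum 0.65, MIR320A 0.46, MIR320B1 0.62, MIR320B2 0.64) and turned the sign for dabrafenib in A375 (family sum -0.0440, MIR320A -0.0529).

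DESeq2's Wald test did so for the family sum (0.49 and -0.0450) and MIR320A (0.46 and -0.0539), and did not call MIR320B1 (0.78) and MIR320B2 (0.84) within dabrafenib. The likelihood ratio test did not call MIR320B1 there (0.72). With only the compared libraries fitted, the miR-320b sum (0.61), MIR320B1 (0.52) and MIR320B2 (0.59) were not called within dabrafenib, the miR-320b sum passed within DMSO (0.48), the sign in A375 turned (family sum -0.0270, MIR320A -0.0456), and 19 precursors responded in A375-BIR.

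With precursors named as rRNA left out, MIR320B1 was not called within dabrafenib (0.73), and 2 precursors differed in response. The other settings of this paragraph and the next were chosen after the data were seen. With precursors like the 45S pre-rRNA left out, MIR320B1 (0.55) and MIR320B2 (0.61) were not called within dabrafenib, and 2 precursors differed in response. With these left out and total counts alone, calls within dabrafenib were lost (family sum 0.36, miR-320b sum 0.42, MIR320A 0.36, MIR320B1 0.36, MIR320B2 0.43), as was MIR320B1 over both treatments (0.41). Signs turned for dabrafenib in A375 (family sum -0.0265, MIR320A -0.0396) and for the difference in response (miR-320b sum -0.0679, MIR320B1 -0.10, MIR320B2 -0.0593), and 20.0 precursors responded in A375-BIR and 2 differed in response.

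As TMM reference, A375-BIR library 3 in DMSO (0.44), A375-BIR libraries 1, 2 and 3 in dabrafenib (0.55, 0.48 and 0.34) and A375 library 2 in dabrafenib (0.54) made the family sum pass within DMSO. The sign for dabrafenib in A375 turned with A375-BIR library 3 in DMSO (-0.0454), A375-BIR libraries 2 and 3 in dabrafenib (-0.0649 and -0.0483), A375 libraries 1 and 2 in DMSO (-0.0424 and -0.0261) and A375 library 2 in dabrafenib (-0.0034).

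With the replicate number as a block, MIR320B1 (0.70, adjusted p = 0.0741) and MIR320B2 (0.76, adjusted p = 0.0542) were not called within dabrafenib, where adjusted p over the alternatives ran from 0.0196 to 0.624 and from 0.00724 to 0.577. It also ended the calls of MIR509-1, MIR509-2 and MIR509-3 for dabrafenib in A375 (0.80, 0.80 and 0.81). No other call changed among the results followed across the alternatives. The differences in response of MIR663A, MIR3648-1 and MIR3648-2 and the value of MIR484 were not among these. Precursors called went from 105 to 103 over both treatments, from 81 to 78 within DMSO and within dabrafenib, from 44 to 34 for dabrafenib in A375 and from 36 to 26 in A375-BIR, and stayed at 6 for the difference. In the 5 pairs of groups other than the DMSO pair, at most 3 of 6 libraries correlated best with their own number.

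Leaving out any A375 library also moved the TMM reference of the family sum, from A375 library 3 in DMSO to A375-BIR library 1 in DMSO. With single libraries left out, the family sum within DMSO lay between 0.26 and 0.44 and MIR320A between 0.23 and 0.41, both passing without A375 library 1 in DMSO. Within dabrafenib the miR-320b sum lay between 0.62 and 0.96, MIR320B1 between 0.54 and 0.89 and MIR320B2 between 0.60 and 0.99. The libraries that ended those calls were A375-BIR libraries 2 and 3 and A375 libraries 1 and 3 in dabrafenib for all of them, A375-BIR library 1 in DMSO for both single copies, and A375 libraries 2 and 3 in DMSO for MIR320B1. For dabrafenib in A375 the miR-320b sum (0.38 to 0.68) and MIR320B2 (0.41 to 0.77) passed without A375 library 2 in dabrafenib. For dabrafenib in A375-BIR, MIR320B1 ran from -0.0342, without A375-BIR library 1 in dabrafenib, to 0.30. The precursors that responded in A375-BIR numbered 20.0 to 46, with 20.0 and 22 without A375-BIR libraries 1 and 2 in DMSO, and those that differed in response 3 to 6, with 3 without A375 library 1 in DMSO or A375 library 1 or 2 in dabrafenib.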
